A study of Drosophila melanogaster and Drosophila mauritiana and Drosophila simulans with 22 samples.

Results

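Testes of hybrid males of Drosophila simulans mothers and D. melanogaster fathers were compared with testes of the mother species on 6 arrays, 3 for the hybrid and 3 for D. simulans, out of 22 arrays in the study. The members were chosen by array title, and all 6 arrays with those titles were used. The study as a whole covered 4 species and 3 kinds of hybrid with D. simulans mothers. The hybrid males came from vials of 10 D. simulans females and 15 D. melanogaster males, and the strains of these parents are not given here. The D. simulans males were of strain 14021-0251.2. D. melanogaster testes, of strain 14021-0231.00, were on 3 further arrays and served as a second reference point. The labels name no mutation, transgene or treatment in any group, and all males were 4 days old and bred at 25 °C under 12 h of light. Each array carried RNA of a pool of 200 testes, labelled as dissected without the accessory glands and amplified in 1 round. It was read against total RNA of whole D. melanogaster males of strain 14021-0231.00, with testes in Cy5 and whole males in Cy3 on every array. A level below is therefore log2 of the testis signal over the whole male signal, centred on the array's median, and a difference is the hybrid level minus the simulans level. In such a ratio, a level above 0 means that the gene took a larger share of the testis signal than of the whole male signal, relative to the median gene.

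Spermatogenesis in flies runs along the testis from stem cells and spermatogonia through spermatocytes and meiosis to spermatids that elongate and individualise. Spermatocytes switch on a large set of testis genes through testis forms of general transcription factors and the tMAC complex, and most of their messages are stored and translated later in spermatids. Transcription largely stops at meiosis, but a small set of genes, known as cup and comet genes, is transcribed again in elongating spermatids. Males of this cross carry the X chromosome of the mother species and the Y chromosome of the father species.

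Of 27648 rows on the array, 15116 carried 1 gene symbol, which gave 6793 genes, and 6791 of them could be tested, having values on 2 or more hybrid arrays and 2 or more simulans arrays. Of 11619 tested rows without a listed gene, 9.6% were lower and 14% higher in the hybrid. The 6 arrays held between 25814 and 26790 values, with an SD between duplicate spots of 0.22 to 0.40, and their small number limits the precision. The study text calls the replicate hybridisations independent without saying of what, so p-values measure the spread between these arrays. Across genes, which are not independent replicates, the hybrid arrays correlated with each other at r of 0.84 to 0.90 and with the simulans arrays at only 0.15 to 0.19. Simulans arrays 1 and 2 correlated at 0.97 and differed by 1.07 times the noise of duplicate spots, against 1.98 and 2.02 times for the other simulans pairs. Whether they come from the same RNA is not stated, so counts are also given with this pair averaged and n = 2 for simulans.

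Large parts of the testis transcriptome differed between the hybrid and its mother species. At a Benjamini-Hochberg adjusted p under 0.05 in limma, 1241 genes (18.3%) were lower and 1203 genes (17.7%) were higher in the hybrid, of 6791 tested. With simulans arrays 1 and 2 averaged, the counts were 954 lower and 902 higher, and 1854 of these 1856 genes were among the calls above in the same direction. The largest differences were mostly falls: a log2 difference past 2 was reached by 471 genes lower (6.94%) and 214 genes higher (3.15%), and one past 4 by 93 lower (1.37%) and 11 higher (0.162%). The median difference of all genes was 0.03, and without centring of the arrays it moved to -0.16, with 1551 genes lower and 909 higher, so that falls made up 63.0% of the calls in place of 50.8%. Among 6626 genes measured on all 6 arrays, every hybrid array lay below every simulans array for 1470 genes (22.2%) and above for 1667 genes (25.2%). Fewer cells of a type and less RNA per cell cannot be told apart in whole testes. The effect of sequence differences between species on the signal was not tested.

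**Figure D1:**
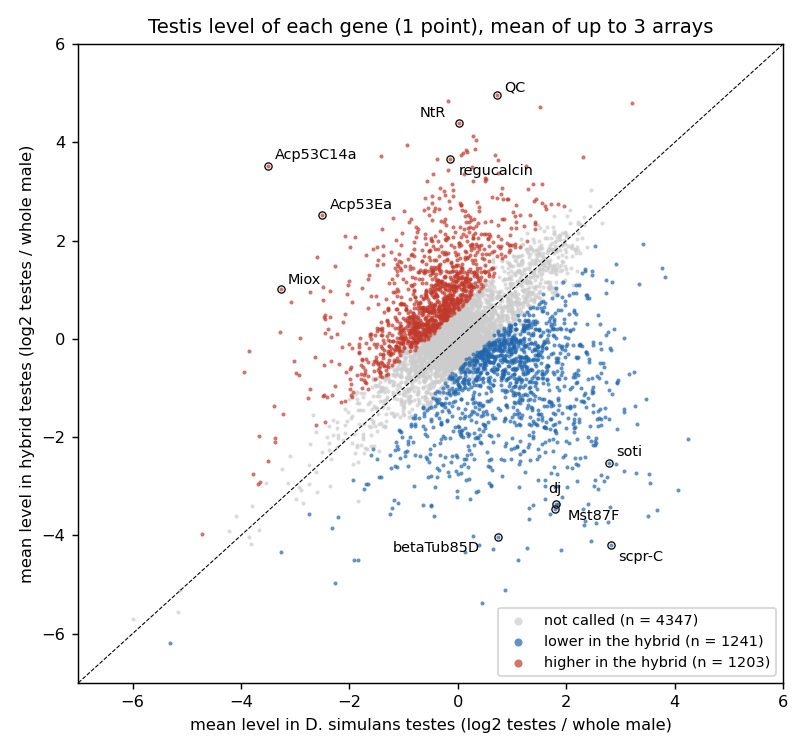
Mean level of each of 6791 genes in D. simulans testes (x axis) and hybrid testes (y axis), both as log2 of testes over whole male, with genes lower in the hybrid in blue (1241), higher in red (1203) and not called in grey; the dashed line marks equal levels. Sperm genes such as dj, Mst87F and soti lie far below the line on the right, and accessory gland genes such as Acp53C14a and Acp53Ea far above it on the left.

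The members were also examined in 28 gene lists by cell stage, tissue and function. Over all genes 18.3% were lower and 17.7% higher, and each list count below is to be read beside these shares. The lists of late spermatid, testis proteasome, testis respiratory chain, cup and comet, and meiotic genes had the lowest hybrid levels relative to D. simulans, together with the muscle list, and accessory gland, cytoplasmic ribosomal and blood cell genes had the highest. On simulans arrays the median of 11 late spermatid genes lay at 1.40 to 1.55, above the whole male, which matches the labelled tissue. On hybrid arrays it lay at -2.46 to -1.76, so the markers by which spermatid-filled testes are recognised were below the whole male there.

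**Figure D2:**
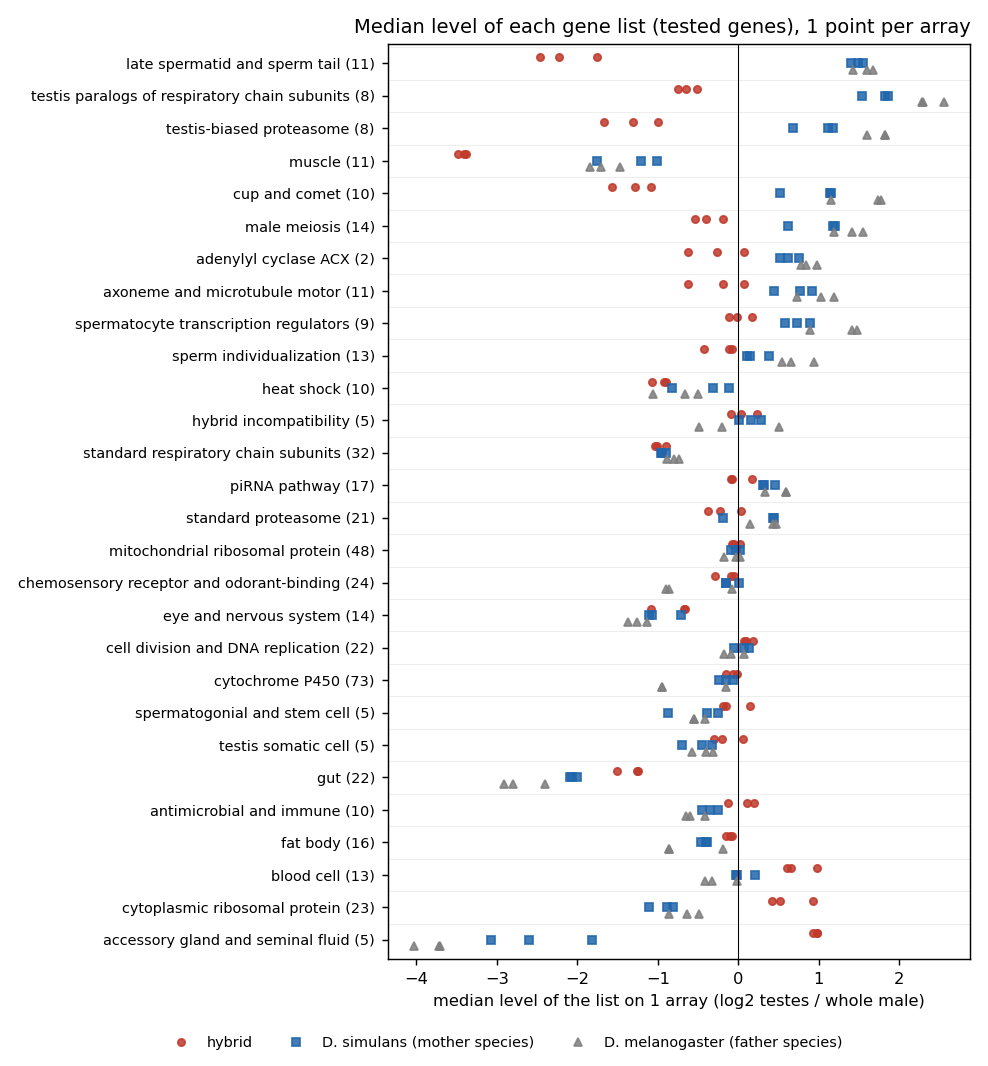
Median level of each gene list (number of tested genes in brackets) on single arrays, as log2 of testes over whole male, for the hybrid (red circles), D. simulans (blue squares) and D. melanogaster (grey triangles), with 3 arrays a group. Lists are ordered by the median difference of their genes between hybrid and D. simulans, from accessory gland (3.25) at the bottom to late spermatid (-2.79) at the top; the late spermatid points of the hybrid lie at -2.46 to -1.76 and those of D. simulans at 1.40 to 1.55.

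The 10 genes with the lowest differences, among called genes measured on all arrays without overlap, had differences from -7.15 to -6.26, and 8 of them carry only a CG number. CG17470 stood at -3.41, -3.28 and -3.75 on the hybrid arrays and at 3.71, 3.81 and 3.50 on the simulans arrays. All hybrid values were far below the whole male and all simulans values far above it, and the difference was -7.15 ± 0.22 (SE), 142-fold, with an adjusted p of 1.08e-08. CG8517 (-7.14), CG4218 (-7.11), CG17377 (-6.58), CG4691 (-6.48), CG9284 (-6.30), CG30355 (-6.30) and CG1690 (-6.26) behaved alike, with SEs of 0.20 to 0.46. The remaining 2 were scpr-C and scpr-B, which encode secreted proteins of the SCP family. Levels of scpr-C were -4.27, -4.28 and -4.03 in the hybrid and 2.99, 2.87 and 2.61 in D. simulans, a difference of -7.02 ± 0.21 with an adjusted p of 1.08e-08. For scpr-B they were -3.87, -3.16 and -4.16 against 2.76, 2.82 and 2.72, and no array of one group came near the other. These are copies of 1 gene family, and cross-hybridisation between them was not tested.

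Of 5 tested spermatogonial and stem cell genes, which act in the earliest germ cells, none was lower and 2 were higher, with a list median of 0.18. Over all genes 36% were called in either direction, so the number of calls in so short a list is near the background. Among these was bam, which drives spermatogonia out of their transit divisions: its levels were 0.73, 0.65 and 1.08 in the hybrid and 0.35, -0.03 and -0.87 in D. simulans. The groups did not overlap but the simulans arrays were spread widely, and the difference was 1.01 ± 0.30 with an adjusted p of 0.0242. Rbfox1, an RNA-binding protein of differentiating germ cells, was 1.03 ± 0.21 higher with an adjusted p of 0.0029, and its 3 probes gave differences from 0.12 to 2.34. The germ line gene otu stood at -0.16, 0.14 and -0.19 against -0.12, 0.01 and -0.07, with overlapping groups and a difference of -0.01 ± 0.20. The call of bam was lost under 7 of the 20 alternatives and that of Rbfox1 under 3, and with 1 row per gene none of the 5 genes was called. Only 1 of the 5 was higher without simulans array 3 (where 1 was also lower), hybrid array 1 or hybrid array 3. The list median turned below 0 without centring or with 1 row per gene. Among 22 genes of general cell division and DNA replication, 1 was lower and 1 higher, with a median of 0.06 that also turned below 0 under those 2 settings. Cks30A, a partner of cyclin-dependent kinases, fell by 2.07 ± 0.28, and Cdc6, which licenses replication origins, rose by 0.90 ± 0.25, a call lost with the simulans pair averaged. Of 5 genes that mark somatic cells of the testis, dsx, eya, zfh1, dlg1 and CadN, none passed the test in limma, with differences from -0.19 to 0.78. Among them 1, dsx, had an unadjusted p under 0.05. It was called higher without simulans array 3, with 1 row per gene, with array weights or with the replicate block.

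Regulators that act in spermatocytes were lower in part. Of 9 tested, 5 were lower and none higher, with a median of -0.70; the count was 2 with the simulans pair averaged or without simulans array 1 or 2, and 3 without hybrid array 2. The largest fall was in topi, a zinc finger protein of the tMAC complex, with levels of -0.30, -0.11 and -0.02 in the hybrid and 2.09, 1.87 and 2.88 in D. simulans. Hybrid values were close to the whole male and all simulans values far above, and the difference was -2.42 ± 0.27 with an adjusted p of 4.55e-05. The tMAC subunit mip40 fell by 1.92 ± 0.28, from 1.49, 1.33 and 0.52 in D. simulans to -0.81, -0.63 and -1.0 in the hybrid. The falls of achi (-0.77 ± 0.21) and comr (-0.72 ± 0.21), which act with the same complex, were smaller, with adjusted p of 0.0159 and 0.0226. The repressor kmg fell by 0.70, and Caf1-55, vis, tbrd-2 and wuc did not pass.

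Of 14 tested genes of male meiosis, 8 were lower and none higher, with a median of -1.15. The testis translation initiation factors eIF4E3 and eIF4G2, needed for meiotic division and spermatid growth, were among the lowest. Levels of eIF4E3 were -1.74, -1.52 and -1.62 in the hybrid and 2.70, 2.82 and 2.18 in D. simulans, with a wide gap between groups and a difference of -4.19 ± 0.23 (adjusted p 3.26e-07). For eIF4G2 the difference was -3.44 ± 0.21. Sister chromatid cohesion was represented by mei-S332, the fly shugoshin, at -1.48, -0.79 and -1.88 against 2.12, 2.09 and 1.84, and by the securin pim at -0.19, -0.49 and -1.43 against 2.02, 1.87 and 2.54. Neither gene overlapped between groups, and their differences were -3.40 ± 0.28 and -2.85 ± 0.33. The meiotic Cdc25 phosphatase twe fell by 1.80, the inhibitor rux by 1.65 and CycB by 0.64. The lipid kinase gene fwd, needed for cytokinesis, fell by 1.93. The 6 members that did not pass were tef (-0.39), gwl (-0.14), the chromosomal passenger genes aurB (-0.03) and Incenp (0.48), vib (0.05), and scra (0.39), the anillin of the cleavage ring.

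Genes of the axoneme and of microtubule motors, with the centriole genes asl and Sas-6 among them, were lower in 6 of 11 cases. None was higher, and the median was -0.78. The count was 3 with the simulans pair averaged or without simulans array 1 or 2. Most affected was betaTub85D, the testis beta-tubulin of meiotic spindles and axonemes. Its levels were -4.14, -3.68 and -4.31 in the hybrid and 0.84, 0.77 and 0.58 in D. simulans. All hybrid arrays were thus far below the whole male, and the difference was -4.77 ± 0.23, 27.3-fold, with an adjusted p of 1.51e-07. Cdlc2, a dynein light chain, was at -2.45, -2.24 and -2.59 against 2.08, 2.17 and 2.25, a difference of -4.59 ± 0.20. Dic61B, an axonemal dynein intermediate chain, fell by 1.91 ± 0.25 and the kinesin Klp59C by 0.95 ± 0.27. The dynein heavy chain genes Dhc98D (-0.29) and Dhc16F (-0.13) did not pass the test.

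Proteasome subunits exist in the testis as standard copies and as testis copies. All 8 tested testis-biased proteasome subunits were lower, with a median of -2.28. Of 21 standard proteasome genes 5 were lower and 3 higher, near the shares of 18.3% and 17.7% over all genes, with a median of -0.05. The difference between the lists was not tested. Prosbeta5R1, a testis form of a catalytic subunit, stood at -1.44, -1.18 and -1.52 in the hybrid and 2.02, 2.13 and 2.04 in D. simulans. The arrays within each group lay close together on opposite sides of the whole male, and the difference was -3.44 ± 0.20 (adjusted p 5.54e-07). The regulatory particle ATPase Rpt3R was at -0.37, -0.13 and 0.28 against 2.67, 2.77 and 2.05, a difference of -2.57 ± 0.26. Prosalpha4T2, with a value on only 2 simulans arrays, also fell by 2.57 (SE 0.31), and Rpt4R by 1.99 ± 0.27. Of the standard subunits, Prosalpha2 fell by 1.42 ± 0.27 and Rpt2 rose by 1.73 ± 0.25.

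In the respiratory chain, 5 of 8 testis paralogs were lower and none higher, with a median of -2.31. COX7AL, a testis form of a cytochrome c oxidase subunit, had levels of -3.29, -1.98 and -2.57 in the hybrid and 1.82, 1.79 and 1.72 in D. simulans. The hybrid arrays varied by more than 1 log2 unit but all lay below every simulans array, with a difference of -4.39 ± 0.30 (adjusted p 1.45e-06). COX6CL fell by 3.81 ± 0.29, ND-51L2, a paralog of a complex I subunit, by 2.94 ± 0.20, and COX6AL by 1.99 ± 0.27, while Cyt-c1L (0.05) did not pass. Among 32 standard respiratory chain subunits 10 were lower and 6 higher, with a median of -0.39 (4 lower and 7 higher with quantile normalization), and ND-18 (-1.94) and ND-B22 (-1.90) had the smallest p.

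Of 10 cup and comet genes, 9 were lower and none higher, with a median of -1.69. The strongest fall was in the comet gene soti, which regulates caspase activity in spermatids, with levels of -2.41, -2.09 and -3.09 in the hybrid and 2.92, 2.99 and 2.44 in D. simulans. The groups were separated by more than 4 log2 units, and the difference was -5.31 ± 0.29 (adjusted p 2.8e-07). The cup gene m-cup was at -1.39, -2.36 and -2.16 against 1.30, 1.32 and 1.51, a difference of -3.35 ± 0.27. The genes boly and h-cup fell by 2.53 ± 0.29 and 2.21 ± 0.26, and r-cup (-0.92, adjusted p 0.106) was the member that did not pass.

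Sperm individualization genes did not move together: of 13 tested, 4 were lower, 3 higher and 6 not called, with a median of -0.51. The counts were 2 lower and 2 higher with the simulans pair averaged, and 2 lower without simulans array 1 or 2. The testis ubiquitin ligase partner klhl10 was at -1.20, -0.94 and -0.94 in the hybrid and 1.99, 1.95 and 2.25 in D. simulans. Its groups were tight and far apart, with a difference of -3.09 ± 0.21 (adjusted p 1.23e-06). Cul3, the cullin that binds klhl10, fell by 2.33 ± 0.23, and its 2 probes gave -3.05 and -1.61. In the opposite direction, Bruce, an inhibitor of apoptosis, was at 0.64, 0.17 and 0.96 against -0.55, -0.68 and -0.46, a rise of 1.16 ± 0.24, and scat, a vesicle tethering subunit, rose by 0.90 ± 0.20.

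All 11 tested late spermatid and sperm tail genes were lower, with differences from -5.26 to -1.29 and a median of -2.79; 10 of them were called with the simulans pair averaged. Mst87F, a sperm tail protein, had levels of -3.81, -2.94 and -3.65 in the hybrid and 1.89, 1.82 and 1.67 in D. simulans. For dj, a protein of sperm tails and mitochondrial derivatives, they were -2.86, -3.48 and -3.77 against 2.13, 2.23 and 1.05. In both genes each hybrid array was far below the whole male and each simulans array above it, and the differences were -5.26 ± 0.26 (38.3-fold, adjusted p 1.61e-07) and -5.17 ± 0.34 (36-fold, adjusted p 1.13e-06). S-Lap8, a leucyl aminopeptidase of sperm, was at -3.02, -2.75 and -2.82 against 1.48, 1.55 and 1.40, and ocn at -2.22, -1.82 and -2.66 against 1.43, 1.44 and 1.53. Neither overlapped between groups, with differences of -4.34 ± 0.20 and -3.70 ± 0.24.

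**Figure D3:**
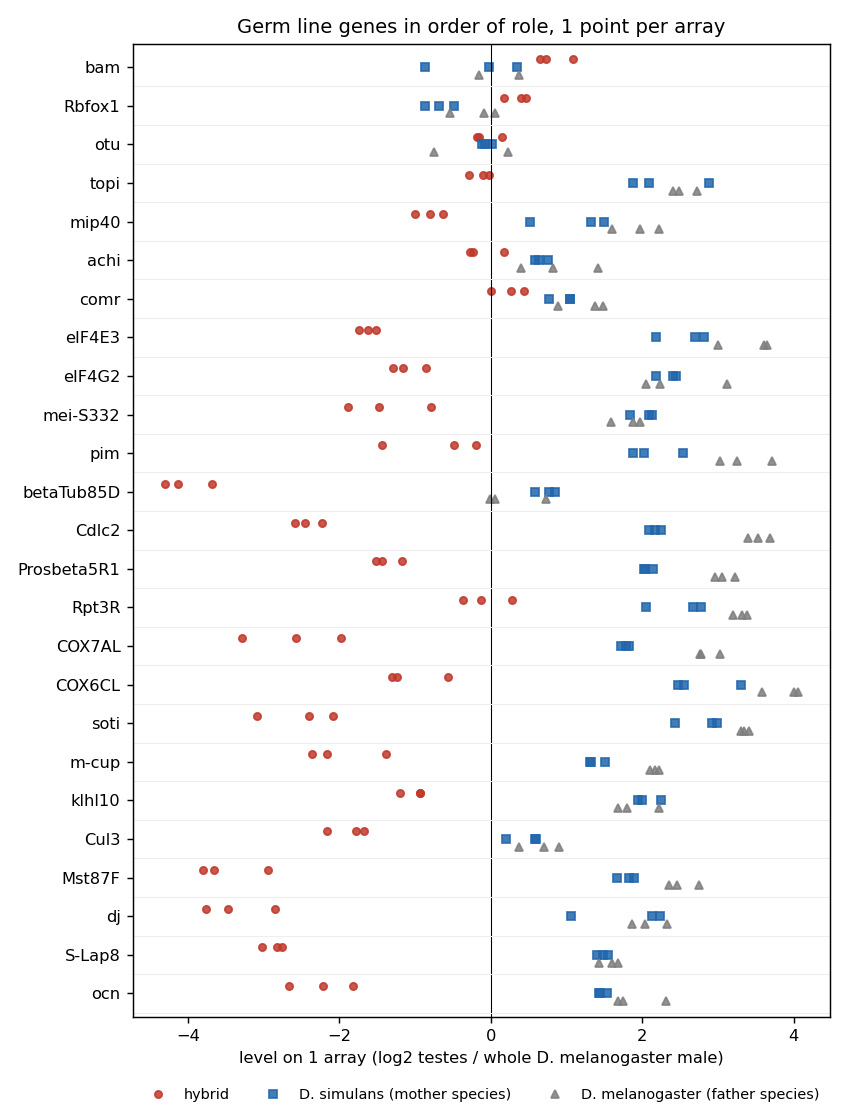
Levels of 25 germ line genes on single arrays, as log2 of testes over whole male, in the hybrid (red circles), D. simulans (blue squares) and D. melanogaster (grey triangles), ordered from spermatogonial genes at the top through spermatocyte and meiotic genes to late sperm genes at the bottom. The hybrid points of bam and Rbfox1 lie above the simulans points, and those of otu lie to both sides of them. From topi downward all hybrid points lie below all simulans points.

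Genes of the piRNA pathway, which silences transposons in the germ line, were mixed: 6 of 17 were lower and 2 higher, with a median of -0.38. The Tudor protein papi was at -1.51, -1.04 and -1.81 in the hybrid and 1.15, 1.59 and 0.55 in D. simulans. No hybrid value reached a simulans value, and the difference was -2.55 ± 0.30 (adjusted p 6.42e-05). Gasz (-0.91 ± 0.21) and krimp (-0.90 ± 0.21) fell less, wde, a cofactor of histone methylation in this pathway, rose by 1.06 ± 0.24, and piwi (0.25) and aub (-0.38) did not pass. Only 1 gene was higher without simulans array 1. ACXC, a testis adenylyl cyclase, fell by 1.89 ± 0.21, and the related ACXD differed by 0.08 ± 0.34.

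None of 5 genes known for their part in incompatibility between Drosophila species passed the test in limma, and 1, gfzf, had an unadjusted p under 0.05. Hmr, the X-linked factor whose D. melanogaster allele is linked to hybrid death, was at 0.44, 0.03 and 0.00 in the hybrid and -0.17, -0.42 and -0.10 in D. simulans. Its groups did not overlap, yet the difference of 0.39 ± 0.22 had an adjusted p of 0.205. Its partner Lhr was at 0.23, 0.04 and -0.72 against 0.57, 0.61 and -0.37, with overlapping groups and a difference of -0.42 ± 0.33. The difference was -0.54 ± 0.20 for gfzf (adjusted p 0.0617), another gene linked to hybrid death, -0.44 ± 0.24 for the nuclear pore gene Nup160 and -0.08 ± 0.22 for OdsH, a homeobox gene linked to hybrid male sterility. Without centring or with arrays scaled to 1 spread gfzf was called lower, and with array weights Lhr passed. Across the 20 alternatives the gfzf difference ranged from -0.73 to -0.006 and that of Hmr from -0.04 to 0.46. A p that misses the threshold does not show equal levels.

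The falls were most frequent among genes that are high in testes of the father species. Those arrays are outside this comparison, but they correlated with the simulans arrays at r of 0.67 to 0.84 across genes. Grouping by D. melanogaster level thus also sorts genes by simulans level, with a median of -2.99 in the lowest group and 2.33 in the highest. Simulans level enters the difference itself, so the pattern below is in part built in and is given as a description. Of 111 genes with a mean level above 3 in D. melanogaster testes, 104 were lower in the hybrid than in D. simulans, 1 was higher and 6 were not called, and the median difference was -3.44. For 359 genes with levels from 2 to 3, 71.3% were lower and 4.46% higher, and for 935 genes from 1 to 2, 44.3% and 10.8%. Between 0 and 1 the shares were closer, at 16.7% lower and 15.8% higher of 1800 genes. Below that the direction turned, with 4.53% lower and 17.8% higher for 2827 genes from -1 to 0, and 5.26% and 48.2% for 114 genes from -3 to -2. Of all 1405 genes with a D. melanogaster level above 1, 774 were lower, 118 higher and 513 not called. All these levels were read against the same kind of whole male RNA, which the arrays share.

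**Figure D4:**
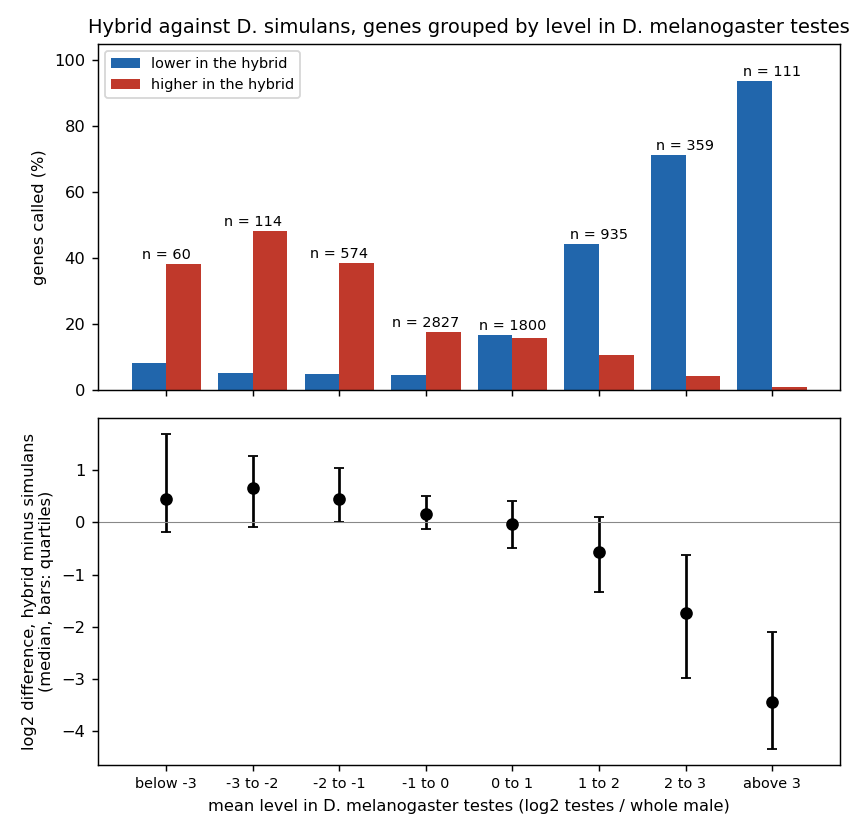
Upper panel: percentage of genes called lower (blue) or higher (red) in the hybrid than in D. simulans, for genes grouped by mean level in D. melanogaster testes (x axis, log2 of testes over whole male), with the number of genes above each pair of bars. Lower panel: median difference, hybrid minus simulans, in log2 units with bars from the lower to the upper quartile. The share of lower genes climbs to 93.7% above a level of 3, where the median difference is -3.44.

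Among the 28 gene lists, that of the accessory gland, which makes the seminal fluid, had the largest median rise. Only 5 of its 43 listed genes were found among the rows with 1 gene symbol. All 5 tested were higher, with a median of 3.25, although the tissue is labelled as dissected without this gland. Acp53C14a was at 1.61, 4.65 and 4.29 in the hybrid and -3.65, -3.45 and -3.40 in D. simulans. Hybrid array 1 was lower than the other 2 but still far above every simulans array, and the difference was 7.01 ± 0.62 (129-fold, adjusted p 7.84e-06). Acp53Ea was at 2.0, 3.24 and 2.34 against -3.07, -2.61 and -1.81, a difference of 5.02 ± 0.37, and Acp36DE, a seminal protein needed for sperm storage, at -0.90, -0.43 and -0.72 against -3.67, -3.72 and -4.42, a difference of 3.25 ± 0.26. Acp32CD rose by 1.44 ± 0.26 and Gld, a glucose dehydrogenase of the ejaculatory duct, by 1.43 ± 0.20, with 0.20 and 2.66 from its 2 probes. The list median was 0.92 to 0.98 on hybrid arrays and -3.07 to -1.81 on simulans arrays, and 4 of the 5 genes, all but Acp36DE, were above the whole male, which contains the gland, on every hybrid array. With the spread from all 22 arrays, 3 of the 5 were called. The part of gland or duct tissue in the other rises was not tested.

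Apart from Acp53C14a and Acp53Ea, the 10 highest differences among non-overlapping genes were in CG15117 (5.13), CG4250 (5.02), CG15096 (4.88), NtR (4.38), Miox (4.28), CG16926 (4.26), QC (4.24) and CG14327 (4.17), with SEs of 0.20 to 0.26. QC, glutaminyl cyclase, was at 5.06, 4.90 and 4.92 in the hybrid and 0.74, 0.67 and 0.77 in D. simulans. The replicates nearly coincided in each group, and its fold was 18.9 with an adjusted p of 1.23e-07. Miox, an enzyme of inositol breakdown, was at 0.87, 1.40 and 0.77 against -3.46, -3.17 and -3.17, and moved from far below to above the whole male.

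Markers of other organs moved in both directions. Of 13 blood cell and basement membrane genes 7 were higher and none lower, with a median of 1.20. PPO2, a phenoloxidase of crystal cells, was at 4.80, 4.64 and 4.73 in the hybrid and 1.69, 1.81 and 1.05 in D. simulans, a rise of 3.20 ± 0.24, and crq, a scavenger receptor of macrophages, rose by 2.52 ± 0.27. By contrast, the haemocyte markers Hml (0.58), NimC1 (-0.24) and eater (-0.07) did not pass. Of 16 fat body genes 7 were higher and 1 lower, with a median of 0.72, led by regucalcin, a calcium-binding protein, at 3.09, 4.10 and 3.77 against 0.10, 0.25 and -0.78. Its groups were separated by more than 2 log2 units, with a difference of 3.80 ± 0.33, and the clotting gene fon rose by 2.90 ± 0.39. The yolk protein genes Yp1, Yp2 and Yp3, also in that list, had differences of -0.23, 0.04 and 0.11 and did not pass.

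Of 22 gut genes 6 were higher and 1 lower (none lower without simulans array 2), with a median of 0.43 and the proteases Jon66Cii (2.03 ± 0.25) and Jon25Bi (1.20 ± 0.24) of smallest p. This count depended on the scaling of the arrays: 14 were higher and none lower with quantile normalization (median 0.83), 9 and none with arrays scaled to 1 spread, and 1 and none with the spread from all 22 arrays. The gut list stayed below the whole male on every hybrid array, at -1.51 to -1.25. Muscle genes moved the other way: 7 of 11 were lower and none higher, with a median of -2.10. The troponin C gene TpnC4 was at -3.11, -3.52 and -3.52 in the hybrid and -1.01, -0.52 and -0.42 in D. simulans, a fall of 2.73 ± 0.24, and TpnC41C fell by 2.65 ± 0.20. All arrays of both groups were below the whole male for both genes. Of 14 eye and nervous system genes 4 were higher and 1 lower, with a median of -0.01 whose sign turned under several settings, and 3 higher and none lower with the simulans pair averaged. Pdh rose by 1.93 ± 0.37 and the channel gene trpl by 1.26 ± 0.23.

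With both directions counted together, stress and defence genes were called about as often as all genes, of which 36% were called. Of 10 heat shock genes 2 were lower and 2 higher, and 4 lower with the replicate number as a block. Hsp60C, a testis chaperonin, was at -3.60, -3.51 and -3.73 in the hybrid and -0.05, 0.01 and -1.28 in D. simulans, a fall of 3.17 ± 0.33, and stv, a co-chaperone, rose by 1.28 ± 0.23. The lower count was 1 without simulans array 1 or 2 or hybrid array 3, and 4 without hybrid array 2. Of 10 antimicrobial and immune genes 4 were higher and none lower, with a median of 0.49, beside 17.7% higher and 18.3% lower over all genes. The higher ones included the drosomycin-like gene Drsl5 (2.45 ± 0.21) and the serpin nec (0.91 ± 0.23). Only 2 were higher with the simulans pair averaged or without simulans array 2 or hybrid array 3.

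**Figure D5:**
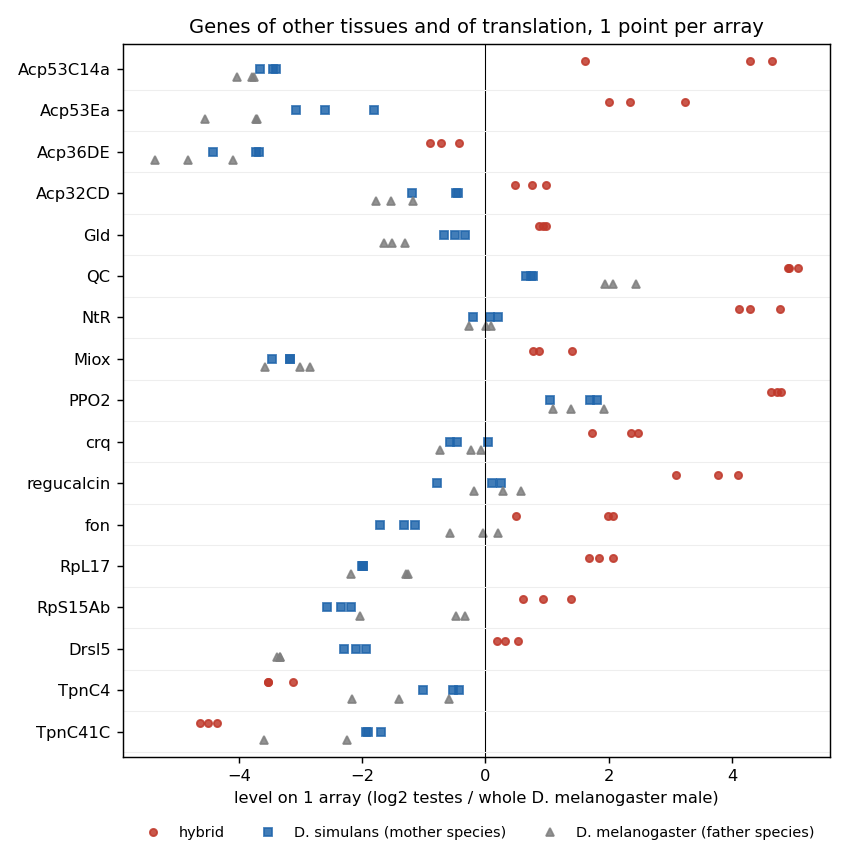
Levels of 17 genes of other tissues and of ribosomes on single arrays, as log2 of testes over whole male, in the hybrid (red circles), D. simulans (blue squares) and D. melanogaster (grey triangles). The hybrid points lie above all simulans points for the first 15 genes, from Acp53C14a to Drsl5, and below them for the muscle genes TpnC4 and TpnC41C.

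Most cytoplasmic ribosomal protein genes rose: 18 of 23 were higher and 2 lower, with a median of 1.45. RpL17 was at 1.85, 2.07 and 1.68 in the hybrid and -1.98, -2.01 and -1.98 in D. simulans. The hybrid arrays were all above and the simulans arrays all below the whole male, with a difference of 3.85 ± 0.20 (adjusted p 2.69e-07). RpS15Ab rose by 3.35 ± 0.25, and RpS19b (-1.54) and RpLP0-like (-0.86) were the 2 that fell. With the simulans pair averaged, 15 of 22 were higher and 1 lower; with the spread taken from all 22 arrays, 7 were higher. Mitochondrial ribosomal protein genes had a median of -0.03, with 9 of 48 lower and 4 higher, and 4 lower and 2 higher with the simulans pair averaged. These counts were near or below the shares over all genes, 18.3% lower and 17.7% higher. Both directions held large differences, as in mRpS34 (3.61 ± 0.29) and mRpS18B (-2.38 ± 0.24).

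Of 73 genes in the cytochrome P450 list, which was filled by symbol, 12 were higher and 5 lower. Over all genes 17.7% were higher and 18.3% lower, and neither count exceeded these shares. The list median was 0.10 and turned below 0 without centring. With the simulans pair averaged 7 were higher and 4 lower. Cyp6d5 rose by 2.49 ± 0.26, with 0.42 and 4.22 from its 2 probes. Cyp40, which fell by 2.21 ± 0.26, is counted among the lower genes but is a cyclophilin and not a P450 gene. Of 24 chemosensory genes 3 were higher and 1 lower, counts that did not exceed the shares over all genes either. With the replicate block 1 was higher, and none was higher with the pair averaged or without simulans array 1 or hybrid array 2. The odorant-binding protein gene Obp44a was at -2.78, -2.91 and -3.12 in the hybrid and 1.14, 0.79 and -0.23 in D. simulans, a fall of 3.50 ± 0.32, while Obp56d rose by 0.63 ± 0.20, a call lost with the pair averaged or the replicate block.

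Against the father species, with the same hybrid arrays, 1560 of 6781 genes (23%) were lower and 1411 (20.8%) higher. Since both comparisons share the hybrid arrays, their values are given side by side only. Against D. melanogaster the difference was -5.99 ± 0.29 for Mst87F (-5.26 against D. simulans), -5.88 ± 0.29 for soti (-5.31), -5.96 ± 0.25 for Cdlc2 (-4.59) and -4.30 ± 0.29 for betaTub85D (-4.77). Upward it was 7.37 ± 0.59 for Acp53C14a (7.01), 3.26 ± 0.28 for PPO2 (3.20) and 3.44 ± 0.30 for RpL17 (3.85). For Rbfox1 it was 0.54 ± 0.26 and for bam 0.71 ± 0.31, neither past the threshold. Against D. simulans both passed in the main setting, with calls lost under some alternatives. Of the 5 incompatibility genes, 2 were lower and 1 higher against D. melanogaster, beside 23% and 20.8% over all genes. Among the 5, gfzf was -2.26 ± 0.24 against D. melanogaster (adjusted p 6.66e-06) and -0.54 ± 0.20 against D. simulans, and Hmr was 0.75 ± 0.26 and 0.39 ± 0.22. D. melanogaster arrays held gfzf at 2.72, 2.79 and 2.71, D. simulans arrays at 0.88, 1.01 and 1.18 and hybrid arrays at 0.38, 0.49 and 0.58, so the 3 groups did not overlap. The gfzf difference from D. simulans depended on the processing, however, and was as small as -0.006 under another setting. In Hmr the D. melanogaster arrays, at -0.51, -0.50 and -0.78, lay below all others.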

How the data were processed

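The authors deposited 1 table of log ratios of testes over whole males, taken as log2. The base is inferred from whole-number ratios on the 3 D. sechellia arrays, where base 2 gave 8.01% to 12.6% of the values examined. On the 6 arrays used here the shares were 0% to 0.69% with base 2 and 0.17% to 1.07% with base 10. The check therefore could not tell the base on these arrays, and all fold values rest on base 2. The sources used here do not give the normalization within arrays. The Canadian Drosophila Microarray Centre labelled and hybridised the RNA, per the labels. Rows with 1 gene symbol were used, array medians over them were subtracted, and rows of a gene were averaged. Genes with values on 2 or more arrays a side went into lmFit and eBayes of limma 3.58.1 under R 4.3.3, with the spread from the 6 arrays, at an adjusted p under 0.05, which applies to every adjusted p in the text. Errors are SEs. The fit was tested on simulated data. Samples were grouped by title, and the members, lists and tests were chosen with earlier results of these data known. The named genes were the 10 lowest and 10 highest called differences without overlap on all arrays, the 4 members of smallest p in each germ line list and 2 in each other list, all incompatibility genes and all members of lists with 6 or fewer tested; further list members are named as examples of their list, chosen after their values were seen. Replicate numbers did not pair the arrays (correlations of deviations -0.11, 0.12 and 0.03). Symbols come from the platform's probe table. X-linked genes were not described, for want of a chromosome table here.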

Additional observations from a re-analysis of the deposited data

Results flagged for a closer look

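Rows that the probe table does not list were outside all gene comparisons, and 11619 of 12430 had enough values to be tested the same way. Of these, 1116 (9.6%) were lower and 1628 (14%) higher in the hybrid than in D. simulans, with differences from -7.51 to 7.23 and a median of 0.03. They are unnamed here, so nothing further can be said of them.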

How the results depend on the processing

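Across the 20 alternatives, no called gene among the 106 named reversed. Of 90 called, 65 passed under every alternative and 25 lost the call under at least 1: 22 under a 2-fold minimum, 20 with the spread from all 22 arrays, 5 with the close simulans pair averaged and 1 with the replicate block. The counts against D. simulans were 659 lower and 422 higher with the spread from all 22 arrays, where the cause was not tested, and 541 lower and 272 higher with a 2-fold minimum, which asks for more by construction. With the spread from all 22 arrays, the lower counts were 9 late spermatid, 7 cup and comet, 6 testis proteasome, 7 meiotic, 3 muscle, 1 piRNA and 3 standard respiratory chain genes, and the higher counts 5 blood cell, 4 fat body and 1 gut gene. Leaving out 1 array gave 942 to 1345 lower and 901 to 1161 higher. With the replicate number as a block the counts were 1266 and 1180, and 3036 against D. melanogaster, and under the block the heat shock list had 4 lower genes, the chemosensory list 1 higher, the cytoplasmic ribosomal list 1 lower and the testis somatic list 1 higher (dsx); no other list count moved by over 1.5 times with it. Against D. melanogaster, 2971 genes were called in all, 1464 with the spread from all 22 arrays, 986 with the 2-fold minimum, and 2269 to 3683 with 1 array left out.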

Other observations

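Further gene groups were put together after their values were seen and are given as a description. Of 20 genes for protein entry into the endoplasmic reticulum and processing there, 12 were higher and none lower in the hybrid, with a median of 1.09, and 12 were higher with the simulans pair averaged. They included the signal peptidase subunits Spase22-23 (3.97 ± 0.30) and Spase12 (2.72 ± 0.26), the oligosaccharyltransferase subunits Dad1 (2.74 ± 0.24) and OstDelta (2.67 ± 0.25), and the signal recognition particle subunit Srp68 (2.01 ± 0.27). Accessory gland genes were higher on the same arrays, and the part of that secretory tissue was not tested.

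Among 30 translation factor genes 8 were lower and 8 higher, and 6 and 8 with the simulans pair averaged. The lower ones included the paralogs eIF4E5 (-6.01 ± 0.21), eIF4E3 (-4.19 ± 0.23), eIF4G2 (-3.44 ± 0.21), eIF4H2 (-3.34 ± 0.20) and eIF3d2 (-3.28 ± 0.30). Also lower were eIF2A (-1.58 ± 0.30), eIF4G1 (-0.80 ± 0.26) and the eIF3 subunit eIF3k (-0.69 ± 0.24). The higher ones included the eIF3 core subunits eIF3a (2.27 ± 0.29), eIF3b (2.04 ± 0.39) and eIF3i (2.23 ± 0.54) and the nascent chain factor Nacalpha (3.68 ± 0.36). Hybrid levels of eIF3i varied widely, at 3.04, 0.27 and 2.15. The eIF3 genes eIF3f1 (0.96), eIF3g1 (0.53) and eIF3l (0.75) did not pass. Of 14 genes matched by symbol as ciliary assembly and tektin genes 11 were lower and 1 higher, and 8 and 1 with the simulans pair averaged. The match also took in 2 mitochondrial dicarboxylate carrier genes, Dic3 (-3.96), counted as lower, and Dic1 (0.94), the 1 counted as higher. Dnaaf6, an assembly factor of axonemal dynein, fell by 4.68 ± 0.22 and Tektin-C by 3.96 ± 0.21.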
